A study of Rattus norvegicus with 3 samples.

Results

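The genes for the neuregulins, for other ligands of the epidermal growth factor family and for their ErbB receptors were followed through the cell types of the rat heart. They comprised 9 of the 22250 genes in the count tables, 5 ligands (Nrg1, Nrg2, Nrg4, Hbegf and Btc) and 4 receptors (Egfr, Erbb2, Erbb3 and Erbb4), chosen by name and all found. Nuclei came from the heart apex, with parts of the septum and both ventricles, of Sprague Dawley rats at 12 months of age. The WT library was from wild-type littermate tissue. The BMD library was from the R-BMDdel45-47 line, which lacks exons 45 to 47 of the dystrophin gene Dmd and keeps its reading frame. The DMD library was from the R-DMDdel52 line, which lacks exon 52. Each genotype had 1 library, and the number of animals in it is not given in the sources used here, so genotype, animal and library cannot be told apart and no test between genotypes was run. The question was which nuclei carried the transcripts of ligands and receptors, and how their levels differed between the libraries.

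ErbB receptors are receptor tyrosine kinases that pair when a ligand binds. Erbb2 binds no ligand of its own and serves as a partner, Erbb3 has little kinase activity and signals with a partner, while Egfr and Erbb4 bind ligands and signal by themselves or in pairs. Neuregulins bind Erbb4, and Nrg1 and Nrg2 also bind Erbb3. In the heart, Nrg1 from the endocardium and vessels is known to act on cardiomyocytes through Erbb4 and Erbb2. This pathway is needed for trabeculation and for the upkeep of the adult heart. Hbegf and Btc bind both Egfr and Erbb4.

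Barcodes with at least 500 UMIs (unique molecular identifiers, 1 per captured transcript) were taken as nuclei, which gave 10069, 6898 and 8212 for WT, BMD and DMD, with medians of 1200, 1468 and 1190.0 UMIs. The nuclei of different libraries shared between 13 and 20 barcodes. Scrublet called 8.04%, 4.97% and 10.0% of the nuclei doublets. They were clustered together without the 9 genes, and 10 classes were named by marker genes and called "-like" for that reason. A further 6 clusters with 1843 of 25179 nuclei stayed unnamed. A level is given as CPM, the UMIs of a gene scaled to 1000000 UMIs of a class in a library, with an exact Poisson 95% interval. Ratios over WT are on the log2 scale with exact binomial 95% intervals. All intervals cover counting error only and leave out the spread between animals and between nuclei. Levels are compared within a gene, never between genes, and a class was ranked for a gene only with at least 20 UMIs over the libraries. The targeted gene Dmd had 16479 CPM in cardiomyocyte-like nuclei of WT, 20570.0 in BMD and 19526 in DMD, so its nuclear count did not mark the deletions and the labels were taken as given.

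**Figure D1:**
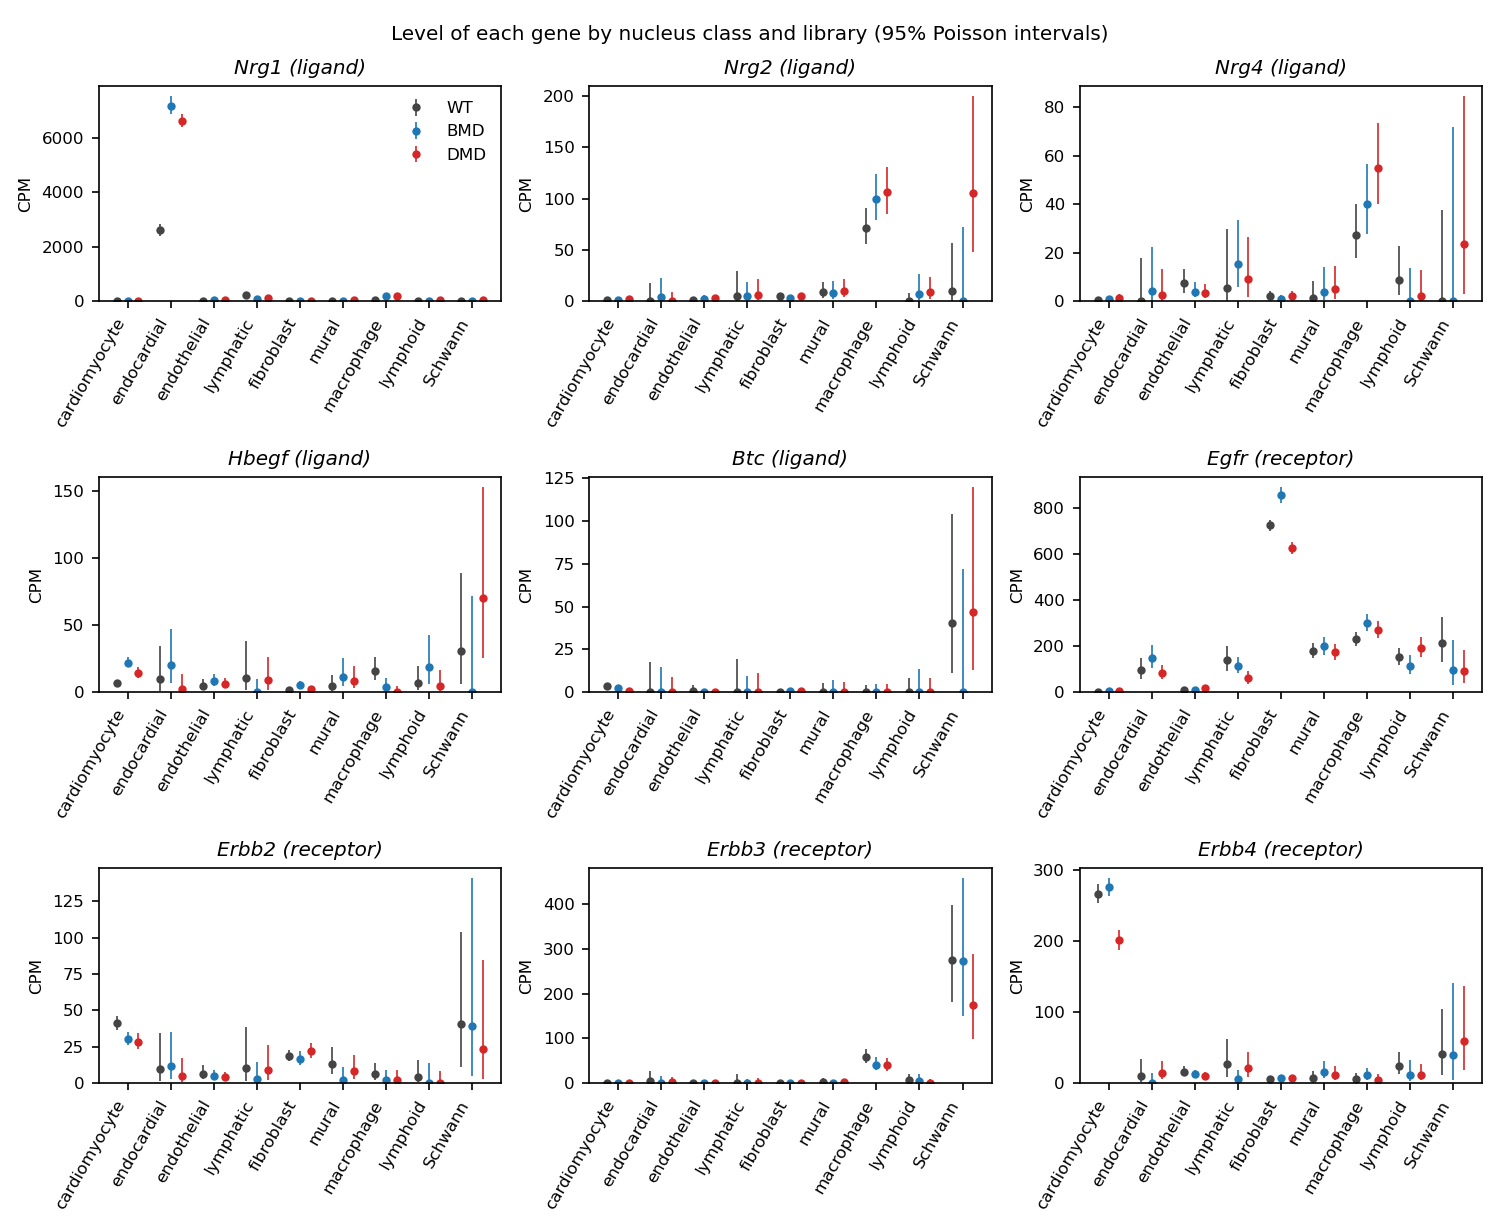
Level of each gene in CPM on a linear axis, by class of nuclei and library (WT grey, BMD blue, DMD red), with points for the level and bars for the exact Poisson 95% interval. Nrg1 stood far above its other levels in endocardial-like nuclei, Egfr in fibroblast-like nuclei and Erbb4 in cardiomyocyte-like nuclei, and wide bars mark classes with few UMIs. The monocyte-like class, with 19 nuclei in WT, is not drawn.

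Nrg1 was carried by endocardial-like nuclei, and its level there was higher in BMD and DMD than in WT. These nuclei numbered 182, 162 and 269 in the libraries of WT, BMD and DMD, and they raised 9 of the 10 listed endocardial markers. The class had 546 UMIs of Nrg1 (ENSRNOG00000010392) in WT, or 2601 CPM. In BMD it had 1787 UMIs, or 7180.1 CPM, and in DMD 2762 UMIs, or 6626 CPM. Of all Nrg1 UMIs in named classes, 84.8% lay in endocardial-like nuclei.

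The log2 ratio of Nrg1 over WT was 1.46 for BMD (1.33 to 1.61) and 1.35 for DMD (1.22 to 1.48). Without a sub-cluster of 84 nuclei that carried pericyte genes, described further on, the ratios were 0.30 for BMD (0.12 to 0.49), under 1.5-fold, and 0.93 for DMD (0.78 to 1.09). Among the genes with at least 50 UMIs in the class, Nrg1 was at place 16 of 2268 from the highest ratio in BMD and at place 25 of 3064 in DMD. By comparison, 9.22% of those genes were at least 1.5-fold higher in BMD and 8.13% in DMD. The median log2 ratio over all of them was 0.03 and -0.02. Directly compared, DMD was lower than BMD by a log2 ratio of -0.12 (-0.20 to -0.03). This order was not kept in every setting. Without the 84 nuclei the ratio over WT was 0.93 for DMD against 0.30 for BMD. Without the 10 nuclei of each library with the most Nrg1 UMIs it was 1.82 for DMD against 1.60 for BMD. Those 10 were picked by Nrg1 itself and made up a smaller part of the 269 nuclei of DMD than of the 182 of WT and 162 of BMD. That removal therefore cannot order BMD and DMD. The summed level of the 10 endocardial markers was 18345, 19845 and 16229 CPM in the WT, BMD and DMD libraries, so the marker level did not follow that of Nrg1. Of single markers, Adgrg6 had a log2 ratio of 0.86 for DMD (0.43 to 1.30), Cdh11 had -0.78 for DMD (-0.91 to -0.66) and Pkhd1l1 had 0.49 for BMD (0.33 to 0.66). Hmcn1, the marker with the most UMIs, had ratios of -0.18 (-0.30 to -0.06) and -0.02 (-0.12 to 0.09).

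Nrg1 was not spread evenly over the endocardial-like nuclei. The median nucleus had 0 UMIs of Nrg1 in WT and in BMD. In WT the nucleus with the most carried 60 UMIs and the 10 nuclei with the most held 51.1% of the UMIs of the class. The corresponding values were 138 UMIs and 47.4% in BMD, and 141 UMIs and 32.8% in DMD. Counting intervals treat UMIs as independent and are therefore too narrow for this gene. Taking nuclei as the unit, and thinning each to 500 UMIs to make the libraries equal in depth, 26.9% of endocardial-like nuclei had a UMI of Nrg1 in WT (exact Clopper-Pearson interval 20.6 to 34.0), 40.1% for BMD (32.5 to 48.1) and 42.8% for DMD (36.8 to 48.9). Without thinning the shares were 33.0%, 48.1% and 55.8%, at median depths of 919, 1196.5 and 1248 UMIs. These nuclei come from 1 library each and are not replicates of a genotype. As a background, 0.30%, 0.13% and 0.56% of cardiomyocyte-like nuclei, at median depths of 2761, 3769 and 3240.0 UMIs, had a UMI of Nrg1 after thinning.

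**Figure D2:**
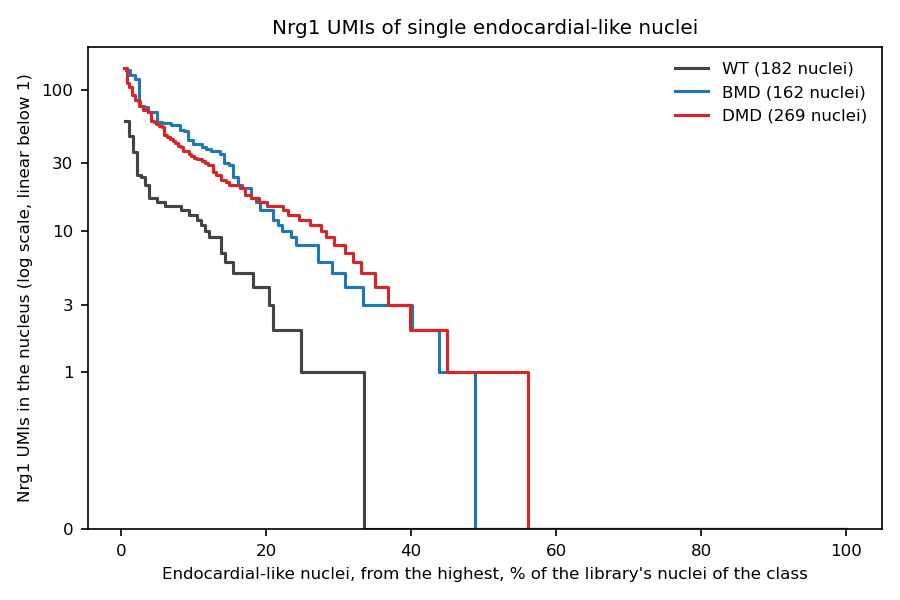
Nrg1 UMIs of each endocardial-like nucleus (log axis, linear below 1), sorted from the highest, against its place as a percentage of the 182 WT, 162 BMD and 269 DMD nuclei of the class. The curves of BMD and DMD lie above that of WT among nuclei with any Nrg1, and each curve ends at 0 before 60% of the nuclei.

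To see where in the class these nuclei lay, the endocardial-like nuclei were clustered alone, a step chosen after the values had been seen and made without the 9 genes. At a resolution of 0.3 the largest sub-cluster, led by Gria2 and Tox, held 412 of 613 nuclei. In it the Nrg1 level was 3166, 10742 and 10289 CPM in the WT, BMD and DMD libraries. Its log2 ratios over WT were 1.76 (1.59 to 1.94) and 1.70 (1.53 to 1.87), somewhat above those of the whole class. A sub-cluster of 121 nuclei led by Igf2 and Wnt9b had 1735, 1469 and 1079 CPM, with ratios of -0.24 for BMD (-0.73 to 0.26) and -0.68 for DMD (-1.16 to -0.20). The last, with 80 nuclei, raised 7 of 10 fibroblast and 6 of 10 pericyte markers, and Scrublet called 50% of it doublets. It made up 18.1%, 6.79% and 13.4% of the class in the WT, BMD and DMD libraries, and its Nrg1 ratios were -0.17 (-0.60 to 0.24) and 1.03 (0.77 to 1.30). The higher Nrg1 level in BMD thus lay in the Gria2 and Tox sub-cluster, while in DMD it lay there and in the nuclei with fibroblast genes.

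At a resolution of 0.6, a sub-cluster of 84 nuclei led by Gria2 and Gdf6 parted from the rest. It also carried genes of pericytes, the contractile cells around capillaries. Its leading genes held Rgs5, Adgrl3, Lrrc4c, Notch3 and Il34, which led the mural-like cluster as well, and it raised 4 of 10 pericyte markers (Rgs5, Pdgfrb, Abcc9 and Notch3) and 1 of 10 endocardial markers over the other endocardial-like nuclei. The summed pericyte markers had 3103, 1294 and 1112 CPM there for WT, BMD and DMD, against 12362, 11079 and 11861 CPM in mural-like nuclei, in which Nrg1 had 11.6 to 33.2 CPM. Scrublet called 3.57% of the sub-cluster doublets. The part of pericyte RNA in the Nrg1 level was not tested. The summed endocardial markers stood at 17376, 16823 and 19477 CPM in it. The sub-cluster held 3.85% of the endocardial-like nuclei of WT with 7 nuclei, 18.5% of those of BMD with 30 nuclei and 17.5% of those of DMD with 47 nuclei. Nrg1 stood there at 11419, 25652 and 19142 CPM for WT, BMD and DMD. The largest sub-cluster at this resolution, with 306 nuclei led by Brinp1 and Nhej1, had 2787, 3982 and 6599.7 CPM. Its log2 ratios were 0.51 for BMD (0.28 to 0.75) and 1.24 for DMD (1.04 to 1.45). The Gria2 and Gdf6 sub-cluster with pericyte genes held 92 of the 546 Nrg1 UMIs of the class in WT, 1229 of 1787 in BMD and 1256 of 2762 in DMD. These sub-clusters were made from the same nuclei and are not independent groups.

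**Figure D3:**
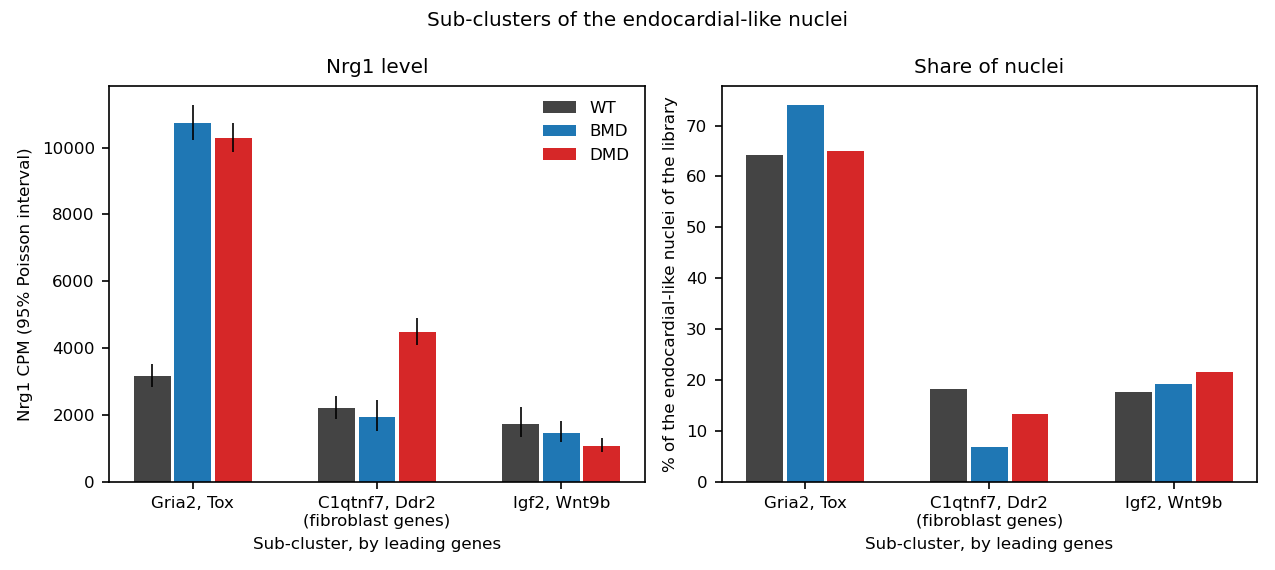
Left, Nrg1 level in CPM with exact Poisson 95% intervals in the 3 sub-clusters of endocardial-like nuclei at resolution 0.3, named by leading genes, for WT (grey), BMD (blue) and DMD (red). Right, the share of each library's endocardial-like nuclei in each sub-cluster, in percent. In the Gria2 and Tox sub-cluster BMD and DMD stood at 10742 and 10289 CPM against 3166 CPM in WT.

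Outside the endocardial-like class, Nrg1 was low, and its level often rested on few nuclei. Free RNA, taken from barcodes with at most 50 UMIs, held Nrg1 at 86.3, 119.9 and 202.9 CPM in the WT, BMD and DMD libraries. In cardiomyocyte-like, endothelial-like, fibroblast-like, mural-like and lymphoid-like nuclei the levels ran from 4.21 to 40.6 CPM, below the free RNA of each library. In DMD, free RNA was bounded by markers of other classes at 1.45% (cardiomyocyte-like) to 10.8% (lymphoid-like) of UMIs, and at 5.14% in endothelial-like nuclei. The part of free RNA in these levels was not tested. Endothelial-like nuclei had 8.03 CPM in WT, 26.0 in BMD and 40.6 in DMD from 11, 48 and 84 UMIs. By ratio over WT, Nrg1 was at place 20 of 7699 genes there in BMD and at place 9 of 8020 in DMD. With Scrublet doublets removed, the log2 ratios in this class were 1.99 for BMD (0.94 to 3.20) and 2.74 for DMD (1.75 to 3.91). Macrophage-like nuclei had 48.4, 173.1 and 169.4 CPM. In BMD, however, a single nucleus gave 110 of their 142 UMIs, and 9 of 575 nuclei had any. With Scrublet doublets removed and the nuclei clustered anew, the macrophage levels were 29.9, 12.7 and 100.7 CPM, so the higher level in BMD was not kept. Lymphatic-like nuclei stood at 233.4, 84.2 and 108.7 CPM in the WT, BMD and DMD libraries, and 38 of the 44 UMIs in WT came from 1 nucleus. Over all nuclei, Nrg1 had 43.7, 147.1 and 239.1 CPM. Both the share of endocardial-like nuclei (1.81%, 2.35% and 3.28% of the libraries) and the Nrg1 level within them enter this sum.

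Among named classes, Nrg2 and Nrg4, the less studied neuregulins, were highest in macrophage-like nuclei. These held 66.9% and 55.0% of the UMIs in named classes, shares that leave out the unnamed clusters. The class numbered 690, 575 and 542 nuclei in WT, BMD and DMD, of which Scrublet called 14.9%, 9.04% and 21.4% doublets. Nrg2 (ENSRNOG00000019093) had 71.5, 99.98 and 106.1 CPM in the WT, BMD and DMD libraries, from 68, 82 and 87 UMIs. The log2 ratio was 0.48 for BMD (0.00 to 0.97) and 0.57 for DMD (0.09 to 1.05), both under 1.5-fold. The DMD ratio lay close to that limit and passed it in some settings, at 0.77 (0.32 to 1.23) with Scrublet doublets removed and 0.76 (0.32 to 1.21) with nuclei of at least 1000 UMIs. The BMD ratio covered 0 in some settings. It was 0.32 (-0.13 to 0.77) with Scrublet doublets removed and 0.18 (-0.26 to 0.63) with nuclei over 5% mitochondrial removed. After thinning, 2.75%, 4.35% and 4.06% of the nuclei had a UMI of Nrg2, with overlapping intervals, against 0.20%, 0.18% and 0.13% of fibroblast-like nuclei. In unnamed cluster 11, described further on, Nrg2 stood at 154.7 CPM in DMD, against 106.1 CPM in macrophage-like nuclei.

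In the same nuclei Nrg4 stood at 27.3, 40.2 and 54.9 CPM for WT, BMD and DMD, from 26, 33 and 45 UMIs. Its ratio over WT was 0.56 for BMD (-0.23 to 1.36) and 1.01 for DMD (0.28 to 1.76). The level in DMD was thus above WT beyond counting error, at place 204 of 6557 genes, and that in BMD was not. In this class 7.37% of genes were at least 1.5-fold higher in BMD and 10.4% in DMD. Over all nuclei, unnamed clusters included, the ratio of Nrg4 was -0.25 for BMD (-0.70 to 0.20) and 0.06 for DMD. In WT the unnamed clusters together held more Nrg4 UMIs than the macrophage-like nuclei did. The macrophage-like class is therefore not shown to be the main source of Nrg4. For both genes the class with the next most UMIs that met the minimum of 20, fibroblast-like for Nrg2 and endothelial-like for Nrg4, stayed between 2.75 and 7.30 CPM.

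Hbegf and Btc, ligands shared by Egfr and Erbb4, had few UMIs, most of them in cardiomyocyte-like nuclei. Hbegf had 42 UMIs in cardiomyocyte-like nuclei of WT, or 6.63 CPM, 146 UMIs in BMD, or 22.0 CPM, and 55 UMIs in DMD, or 14.3 CPM. WT was thus the lowest and BMD the highest of the libraries, with log2 ratios over WT of 1.73 for BMD (1.22 to 2.26) and 1.11 for DMD (0.50 to 1.72). DMD was below BMD by a log2 ratio of -0.62 (-1.10 to -0.16). At a resolution of 1.0 the cardiomyocyte-like nuclei split into a cluster led by Dhrs7c and Ky and one led by Nppa and Xirp2. The former held 1682, 339 and 310 nuclei of WT, BMD and DMD, the latter 343, 1188 and 757. Levels in each were not taken, and all ratios of cardiomyocyte-like nuclei pool them. A shift between these clusters and a change within them cannot be told apart for any gene of the class. Hbegf was at place 86 of 9645 genes in BMD and at place 285 of 9280 in DMD. Its UMIs were spread over 39, 95 and 42 nuclei, with at most 9 in one. Thinned to 500 UMIs, 0.35%, 1.05% and 0.75% of these nuclei had a UMI, with overlapping intervals, since thinning leaves few UMIs of so low a gene. Macrophage-like nuclei went the other way, with 15, 3 and 0 UMIs of Hbegf, or 15.8 CPM in WT and 3.66 CPM in BMD, and a limit of 3.66 CPM set by 3 counts in DMD. Btc had 23, 15 and 3 UMIs in cardiomyocyte-like nuclei, or 3.63, 2.26 and 0.78 CPM. Its ratio over WT was -0.69 for BMD (-1.73 to 0.31) and -2.22 for DMD (-4.60 to -0.49), the latter resting on 3 UMIs. Schwann-like nuclei, below the minimum for ranking, had 4, 0 and 4 UMIs of Btc, or 40.6 CPM in WT and 46.8 CPM in DMD with intervals of 11.1 to 104 and 12.7 to 119.8, above the cardiomyocyte-like level. Their Hbegf count was 3, 0 and 6 UMIs. Cardiomyocyte markers summed to 6276, 2768 and 11602 CPM in Schwann-like nuclei of WT, BMD and DMD. Scrublet called 19.1%, 2.94% and 11.4% of these nuclei doublets. With doublets removed, their Btc count was 2, 0 and 2 UMIs, or 38.9 CPM in WT and 47.5 CPM in DMD. The part of cardiomyocyte RNA in these counts was not tested.

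Of the 9 genes, 4 had at least 50 UMIs over both libraries in cardiomyocyte-like nuclei. In BMD 1 of these 4 was at least 1.5-fold higher than in WT (Hbegf) and 0 were lower, against 8.27% and 8.97% of all genes. In DMD, 2 of 4 were higher (Hbegf and Nrg1) and 0 lower, against 9.11% and 10.4%. The Nrg1 count among them was 27 UMIs in WT and 46 in DMD, at 4.26 and 11.9 CPM, while the free RNA of these libraries held 86.3 and 202.9 CPM. Free RNA was bounded at 2.23% and 1.45% of the UMIs of this class in WT and DMD. Its part in the Nrg1 count was not tested. So few genes allow no comparison with the share over all genes.

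**Figure D4:**
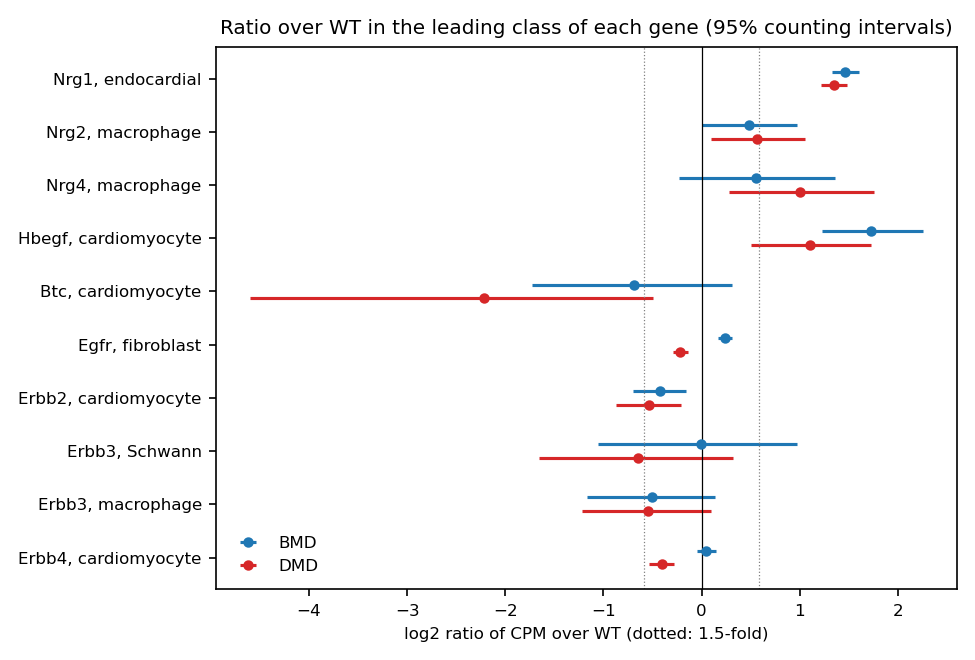
Log2 ratio of CPM over WT for each gene in the class that carried it, with BMD in blue and DMD in red, points for the ratio, bars for the exact binomial 95% interval and dotted lines at 1.5-fold. Nrg1 and Hbegf lie to the right in both libraries, and Erbb2 lies to the left of 0 in both. Erbb4 and Egfr differ in DMD from BMD.

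Erbb4, the receptor through which neuregulin acts on heart muscle, was the receptor gene most confined to one class, with 95% of its UMIs in named classes in cardiomyocyte-like nuclei. Its level there was 266.2 CPM for WT (1687 UMIs), 275.0 CPM for BMD (1829 UMIs) and 200.8 CPM for DMD (774 UMIs). WT and BMD stood together and DMD below both. The log2 ratio over WT was 0.05 for BMD (-0.05 to 0.14) and -0.41 for DMD (-0.53 to -0.28), and DMD over BMD was -0.45 (-0.58 to -0.33). The ratio in DMD was under 1.5-fold, at place 7620 of 9280 genes from the highest. Like those of Hbegf, these ratios pool the cardiomyocyte-like clusters led by Dhrs7c and by Nppa. A UMI of Erbb4 was found in 12.3% of thinned cardiomyocyte-like nuclei in WT (10.9 to 13.8), 12.5% for BMD (10.9 to 14.3) and 8.46% for DMD (6.86 to 10.3), and in 0.76%, 0.58% and 0.60% of endothelial-like nuclei. The next class that met the minimum of 20 UMIs was endothelial-like at 9.67 to 15.3 CPM. Below that minimum, Schwann-like nuclei had 39.0 to 58.5 CPM from 11 UMIs over the libraries. Lymphatic-like nuclei had 5.10 to 26.5 CPM from 14 UMIs, and lymphoid-like nuclei 11.0 to 24.4 CPM from 19 UMIs. In the free RNA, Erbb4 stood at 161.2, 108.8 and 57.8 CPM in the WT, BMD and DMD libraries. Summed over all nuclei, it had 120.7, 139.7 and 72.3 CPM, where the share of cardiomyocyte-like nuclei (20.1%, 22.1% and 12.96%) enters as well.

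Erbb2, the partner without a ligand, was highest in cardiomyocyte-like nuclei and next in fibroblast-like nuclei. The cardiomyocyte levels were 41.0 CPM for WT (260 UMIs), 30.5 CPM for BMD (203 UMIs) and 28.3 CPM for DMD (109 UMIs). Both were below WT beyond counting error, with log2 ratios of -0.43 for BMD (-0.70 to -0.16) and -0.54 for DMD (-0.87 to -0.21), both under 1.5-fold. The DMD ratio passed that limit at -0.59 with Scrublet doublets removed, -0.61 with thinned aggregate counts and -0.59 over all nuclei. They did not differ from each other beyond it, at -0.11 (-0.46 to 0.23). In fibroblast-like nuclei Erbb2 had 18.8, 16.8 and 22.1 CPM, and the ratios of -0.16 (-0.69 to 0.36) and 0.24 (-0.22 to 0.69) covered 0. After thinning, 2.07%, 1.77% and 1.22% of cardiomyocyte-like nuclei had a UMI, with overlapping intervals. Schwann-like nuclei had too few UMIs of Erbb2 to be ranked, with 4, 2 and 2, at 40.6, 39.0 and 23.4 CPM.

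Egfr, the receptor for epidermal growth factor, was carried by fibroblast-like nuclei, which held 84.1% of its UMIs in named classes. It had 725.8 CPM for WT (3519 UMIs), 856.5 CPM for BMD (2493 UMIs) and 625.0 CPM for DMD (2148 UMIs). The direction differed between the models, with log2 ratios of 0.24 for BMD (0.16 to 0.31) and -0.22 for DMD (-0.29 to -0.14), both small. The class held 2 clusters, and the one led by Ltbp2 and Tnc took 5.55%, 29.8% and 16.05% of its nuclei in the WT, BMD and DMD libraries. Within the larger cluster the Egfr ratios were 0.28 (0.19 to 0.37) and -0.16 (-0.24 to -0.08), and within the Ltbp2 and Tnc cluster 0.24 (0.04 to 0.45) and -0.41 (-0.64 to -0.17), so both directions were seen in each. Over all nuclei, where fibroblast-like nuclei made up a smaller share in BMD and DMD, the Egfr ratio for BMD turned to -0.27 (-0.34 to -0.20). Thinned to 500 UMIs, 27.6% of fibroblast-like nuclei had a UMI of Egfr in WT (26.1 to 29.1), 29.9% for BMD (27.7 to 32.2) and 24.0% for DMD (22.2 to 25.8). Macrophage-like nuclei came next with 230.2, 301.2 and 269.4 CPM, and 163.9, 210.4 and 161.9 CPM with Scrublet doublets removed. Mural-like nuclei, pericytes and smooth muscle by their markers, had 180.6, 198.6 and 172.6 CPM, with ratios that covered 0. With doublets removed and nuclei clustered anew, the mural-like class had 135.5, 211.3 and 132.5 CPM. The BMD ratio was then 0.64 (0.16 to 1.13), past 1.5-fold. That class raised 4 smooth muscle markers, against 8 in the main setting. A separate unnamed cluster of 135 nuclei, led by Myh11 and Acta2, raised 8 of 10. Doublet removal and this change of the class cannot be told apart. Cardiomyocyte-like nuclei had between 2.37 and 3.63 CPM. In these hearts the transcripts of Hbegf and of Egfr were thus mostly in different classes.

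Erbb3, a neuregulin receptor of glial cells, was highest in Schwann-like nuclei, although these were few. The class had 68, 34 and 35 nuclei in the WT, BMD and DMD libraries. Erbb3 reached 274.2, 272.9 and 175.4 CPM in the WT, BMD and DMD libraries, from 27, 14 and 15 UMIs, and the ratios of -0.01 (-1.05 to 0.97) and -0.64 (-1.66 to 0.32) covered 0. Schwann markers summed to 8114, 11811 and 6094 CPM in these nuclei, and whether the purity of the class differed between libraries was not tested. With Scrublet doublets removed, Schwann-like nuclei had Erbb3 at 369.9, 281.1 and 261.3 CPM, and the ratios of -0.40 (-1.50 to 0.68) and -0.50 (-1.72 to 0.64) covered 0. Of the Erbb3 UMIs in named classes, Schwann-like nuclei held 28.4%, and the macrophage-like nuclei, at a lower level, held 62.4%. The macrophage-like class had 58.9, 41.5 and 40.2 CPM, from 56, 34 and 33 UMIs over 49, 29 and 30 nuclei. There the ratios of -0.51 for BMD (-1.17 to 0.13) and -0.55 for DMD (-1.22 to 0.10) also covered 0. With doublets removed, macrophage-like nuclei kept Erbb3 at 54.6, 43.8 and 39.5 CPM. Cardiomyocyte-like nuclei had 3 UMIs in all, at 0.15 to 0.26 CPM.

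Across the 10 classes the order of levels, as the mean ± SD over the 3 libraries, showed how far apart the first class and the next were. Nrg1 had 5469 ± 2499 CPM in endocardial-like nuclei and 142.1 ± 80.0 CPM in lymphatic-like nuclei. Egfr had 735.8 ± 116.1 CPM in fibroblast-like and 266.9 ± 35.5 CPM in macrophage-like nuclei, followed by mural-like nuclei. Once doublets were removed and nuclei clustered anew, the range of mural-like nuclei overlapped that of macrophage-like nuclei. Erbb4 had 247.4 ± 40.5 CPM in cardiomyocyte-like and 12.5 ± 2.83 CPM in endothelial-like nuclei, and the latter did not differ beyond its spread from mural-like nuclei at 11.4 ± 4.08 CPM. For Erbb2 the levels were 33.3 ± 6.81 CPM in cardiomyocyte-like and 19.2 ± 2.67 CPM in fibroblast-like nuclei, and for Erbb3 240.8 ± 56.6 CPM in Schwann-like and 46.8 ± 10.4 CPM in macrophage-like nuclei. Here the 3 libraries differ in genotype and are not replicates.

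Of the other ligands of the family found in the files, Tgfa, a ligand of Egfr, had an appreciable count. Most of its UMIs lay in cardiomyocyte-like nuclei, at 60.1, 83.9 and 82.5 CPM in the WT, BMD and DMD libraries, from 381, 558 and 318 UMIs. The log2 ratios there were 0.48 and 0.46. In the same order, lymphatic-like nuclei had 0, 74.0 and 27.2 CPM from 0, 29 and 9 UMIs. Endocardial-like nuclei had 33.3, 52.2 and 26.4 CPM from 7, 13 and 11 UMIs. Schwann-like nuclei had 50.8, 0 and 58.5 CPM from 5, 0 and 5 UMIs. Egf had 21, 4 and 7 UMIs over all nuclei of WT, BMD and DMD, Areg had 6, 12 and 8, Ereg had 3, 1 and 2, and Epgn had 0, 0 and 1.

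Genes that act around the receptors were taken from a list of 84, of which 82 were found, covering shedding enzymes, adaptors, kinases and negative regulators. In cardiomyocyte-like nuclei 69 of them had enough UMIs in BMD, where 2 were at least 1.5-fold higher than in WT and 4 lower. In DMD 2 of 67 were higher and 10 lower. Over all genes of this class, 8.27% were higher and 8.97% lower in BMD, and 9.11% and 10.4% in DMD. As medians the list stood at -0.07 and -0.09 on the log2 scale, against -0.05 and -0.04 over all genes. The share of all genes past 1.5-fold the same way in both was not taken, and both ratios rest on the same WT library. The ratios also pool the cardiomyocyte-like clusters led by Dhrs7c and by Nppa, whose shares differed between the libraries. The genes of the list past 1.5-fold the same way in both were all lower. They were Adam10, a protease that sheds membrane-bound ligands, Gab1, an adaptor of ErbB signalling, and Lrig1 and Lrig3, of which Lrig1 is known to restrain ErbB receptors. Adam10 had 328.0, 218.1 and 147.4 CPM in the WT, BMD and DMD libraries, with log2 ratios of -0.59 (-0.69 to -0.49) and -1.15 (-1.29 to -1.02). Gab1 had 343.3, 212.5 and 209.4 CPM, with ratios of -0.69 (-0.79 to -0.59) and -0.71 (-0.83 to -0.60). Lrig1 had 42.3, 27.7 and 21.5 CPM and Lrig3 23.0, 11.4 and 11.9 CPM.

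In fibroblast-like nuclei 72 genes of the list had enough UMIs in BMD, with 2 higher and 9 lower, and 73 in DMD, with 1 higher and 8 lower. The background was 5.70% higher and 10.5% lower in BMD, and 5.36% and 5.62% in DMD. List medians were 0.04 and -0.02, against -0.06 and -0.02 over all genes. The feedback inhibitors of receptor tyrosine kinases Spry1, Spry2 and Spry4 were lower in both. Spry1 had 173.1, 66.3 and 94.9 CPM in the WT, BMD and DMD libraries, with log2 ratios of -1.38 (-1.62 to -1.16) and -0.87 (-1.06 to -0.68). Spry2 had 46.6, 22.3 and 23.6 CPM, and Spry4 had 52.2, 27.8 and 30.6 CPM. Within the larger fibroblast cluster, the Spry1 ratios were -1.18 (-1.44 to -0.93) and -0.76 (-0.96 to -0.57), and in the Ltbp2 and Tnc cluster -1.19 (-1.86 to -0.51) and -0.94 (-1.65 to -0.23). Spry2 was also past 1.5-fold lower in each of the clusters. Spry4 was so in the larger one, at -1.07 (-1.55 to -0.63) and -0.59 (-0.94 to -0.25), while in the Ltbp2 and Tnc cluster it had 0.17 for BMD (-0.85 to 1.31). The adaptor gene Shc2 had 61.7, 39.2 and 40.7 CPM, and the protease gene Bace1 had 14.0, 8.25 and 9.31 CPM. The Bace1 ratio for DMD of -0.59 (-1.25 to 0.04) covered 0. Within the larger cluster Shc2 was under 1.5-fold, at -0.55 (-0.93 to -0.20) and -0.53 (-0.85 to -0.22), and Bace1 covered 0 in both, at -0.47 (-1.27 to 0.27) and -0.62 (-1.34 to 0.05). Shc3, another adaptor, was the gene higher in both, with 4.74, 22.3 and 10.2 CPM and ratios of 2.23 (1.53 to 2.99) and 1.10 (0.30 to 1.93). In the larger cluster alone its ratio in DMD was 0.49 (-0.48 to 1.44), so the higher level in DMD was not kept there beyond counting error.

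In endocardial-like nuclei 40 and 44 genes of the list had enough UMIs, with 3 higher and 2 lower in BMD and 2 higher and 3 lower in DMD. Of all genes there, 9.22% were higher and 9.04% lower in BMD, and 8.13% and 7.44% in DMD. In endothelial-like nuclei 1 of 62 was higher and 3 lower in BMD, and 2 of 65 higher and 1 lower in DMD, against 4.73% and 7.87%, and 5.44% and 3.99%, of all genes. Spry4 was lower in both there, at 38.7, 24.9 and 19.3 CPM, with ratios of -0.63 (-1.24 to -0.04) and -0.99955 (-1.63 to -0.38). In the larger endothelial-like cluster the ratios were -0.54 (-1.16 to 0.08) and -1.19 (-1.87 to -0.53), and in the smaller one -0.84 (-3.74 to 2.06) and 0.62 (-1.61 to 3.25).

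**Figure D5:**
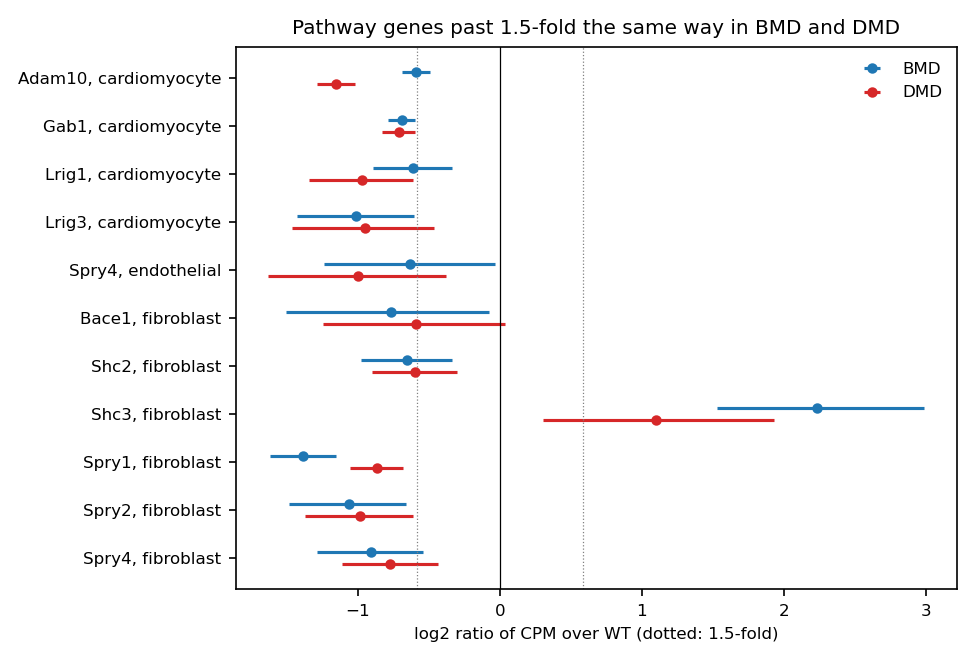
Log2 ratio of CPM over WT, with exact binomial 95% intervals, for the 11 pairs of a pathway gene and a cardiomyocyte-, endothelial- or fibroblast-like class that were past 1.5-fold (dotted lines) the same way in BMD (blue) and DMD (red). Of these, 10 lie to the left of 0 and Shc3 in fibroblast-like nuclei lies to the right. Both ratios use the same WT library, and the share of all genes past the fold the same way in both was not taken.

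Genes with a pattern like that of a receptor or ligand were found by the Pearson correlation of log2(CPM + 5) over 30 profiles, the 10 classes in each of the 3 libraries, among 11353 genes with at least 200 UMIs. The profiles share libraries and clusters, so r describes likeness only. For Nrg1 the 5 most alike were Cgnl1, Rps6ka2, Smoc1, Reg3g and Plvap, at r from 0.91 to 0.81, of which Cgnl1 and Smoc1 were among the markers that named the endocardial-like class. Those of Erbb4 were Asb9, Hs3st5, Pde4dip, Acacb and Mypn (0.94 to 0.92), and those of Erbb2 were Wdr27, Kank2, Lgr4, Nrbp2 and Hectd2 (0.89 to 0.83). Egfr was most like Igf1, C1qtnf7, Medag, Lrp1 and Axl (0.93 to 0.91). The 5 for Erbb3 were Rassf4, Gas2l3, Kcnh8, Cdh19 and Cadm2 (0.93 to 0.84), and Cdh19 and Cadm2 were among the Schwann cell markers.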

How the data were processed

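Rat heart nuclei were profiled with the 10x Genomics 3′ v3.1 kit by the methods and labels, although the results text of the study names a 5′ technology. The authors counted UMIs per gene with Cell Ranger on rn6, per the submitters' processing notes, and deposited raw counts for all barcodes. Whether introns were counted is not given in the sources used here. WT counts were read from an aggregated matrix of all 3 libraries by their barcode suffix, and those of BMD and DMD from separate matrices. In the aggregate BMD and DMD were thinned, with 76.1% and 92.9% of the UMIs of their separate matrices. Whether WT was thinned there as well cannot be seen without a separate WT matrix. File headers name Cell Ranger 4 for BMD and DMD and 6.0.1 for the aggregate, which also holds BMD and DMD. The version that counted WT is not shown. If it differed from that of BMD and DMD, Cell Ranger version and genotype cannot be told apart. The libraries held 21609238, 21142346 and 19215994 UMIs, which limits low genes to the precision of the intervals.

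Nuclei were clustered in scanpy 1.11.5 (2000 variable genes, 30 components, 15 neighbours, Leiden resolution 0.5) without the 9 genes and the pathway list. A cluster was named when at least 3 listed markers were 2-fold above the other nuclei, and left unnamed when mixed or led by other genes, rules set partly after the clusters were seen. No doublet filter was applied in the main setting. Sums, exact intervals (scipy 1.17.1) and the rule of 1.5-fold with at least 50 UMIs followed. Thinning kept 500 UMIs of each nucleus. The ratio function was tested on simulated Poisson counts without spread between nuclei or animals, so the shares that follow cover counting error only. Of 100 genes simulated 2-fold different at cardiomyocyte-like depth, among 9261 genes, 99.0% were past 1.5-fold, and 2.13% of unchanged genes were. At endocardial-like depth, among 2976 genes, 94.3% of 88 were, and 7.63% of unchanged genes. A level of 0 is bounded at 3 counts. The members and lists were chosen with earlier results of these data known. Named genes are the 9, the other ligands, list genes past 1.5-fold the same way in BMD and DMD in cardiomyocyte-, endocardial-, endothelial- or fibroblast-like nuclei, and the 5 most alike, with 1 list gene not reported here. Fixed alternatives were 1000 UMIs, doublet and mitochondrial filters, resolution 1.0, clustering with the genes, free RNA subtraction, edgeR 4.0.16 TMM factors, a mean per nucleus, all nuclei, thinned aggregate counts and other minimums. The study's number of nuclei, sub-clusters and removal of single nuclei were added after seeing the data.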

Additional observations from a re-analysis of the deposited data

Results flagged for a closer look

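Nuclei and RNA outside the named classes held a few levels above those of WT. In unnamed cluster 13, with 574 nuclei of which Scrublet called 86.9% doublets, Nrg1 stood at 12.4 CPM in WT, against 188.6 in BMD and 100.9 in DMD, from 15, 121 and 69 UMIs in 6, 7 and 10 nuclei. In the free RNA Nrg1 stood at 86.3 CPM in WT and 202.9 in DMD. In unnamed cluster 11, with 315 nuclei led by Flt3 and Wdfy4, Nrg2 stood at 72.4 CPM in WT and 154.7 in DMD, from 30 and 40 UMIs. With 1 library per genotype none of these differences was tested.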

How the results depend on the processing

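No paired analysis was possible because each genotype had 1 library, and for the same reason no replicate could be left out. The Nrg1 log2 ratio for BMD was 1.752 over all nuclei, 1.762 in the largest endocardial-like sub-cluster at resolution 0.3 and 0.5145, under 1.5-fold, in that at 0.6. Without the sub-cluster with pericyte genes it was 0.304, under 1.5-fold, and 0.931 for DMD. For DMD it was also 1.207 as a mean share per nucleus, 2.452 over all nuclei, 1.819 without the 10 nuclei of each library with the most Nrg1 UMIs and 1.7 in the largest sub-cluster. Over all nuclei Erbb4 stood at 0.2108 for BMD and -0.7388 for DMD, past 1.5-fold lower, and Egfr for BMD at -0.2695. Over all nuclei the DMD ratios of Hbegf (0.4553) and Nrg4 (0.05872) fell under 1.5-fold. In cardiomyocyte-like nuclei, with a minimum of 200 UMIs, 0 of the 9 genes were past 1.5-fold in either model. With a minimum of 10 UMIs there were 2 in BMD (Hbegf and Btc) and 5 in DMD (Nrg1, Nrg2, Hbegf, Btc and Egfr). The cause of these shifts was not tested. Erbb2 ran from -0.45 to -0.39 for BMD and from -0.61 to -0.50 for DMD over its alternatives, the latter past 1.5-fold in 3 of them. The class with the highest level was kept for 8 or 9 of the 9 genes, Erbb3 being the exception. In 3 settings the Schwann cluster went unnamed, so that macrophage-like nuclei led by default. Depth limits genes with few UMIs, such as Btc with 41 in cardiomyocyte-like nuclei.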

Other observations

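Erbb4 UMIs were also found in unnamed clusters. In cluster 13 its level was 201.5, 213.6 and 119.9 CPM for WT, BMD and DMD. In cluster 11 it was 144.8, 186.3 and 123.7 CPM. Cluster 9, with 27 nuclei of which 25 came from DMD, was led by Ibsp and Bglap, genes of bone, and held 26 Erbb4 UMIs in DMD.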
